A study of Homo sapiens with 6 samples.

Results

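The 39 genes described here encode the heat shock proteins, their partner proteins and the chaperonin that fold proteins in the cytosol, with a few relatives outside it. They were taken by symbol from the 60664 genes of the deposited count table, and all 39 were found and lay among the 17638 genes that were abundant enough to be tested. Sorted by role they comprised 2 inducible HSP70 genes (HSPA1A, HSPA1B), 4 other HSP70 genes (HSPA2, HSPA8, HSPA13, HSPA14), 3 HSP110 genes (HSPH1, HSPA4, HSPA4L), 6 HSP40 genes (DNAJA1, DNAJA2, DNAJB1, DNAJB2, DNAJB4, DNAJB6), 2 HSP90 genes (HSP90AA1, HSP90AB1), 4 cochaperones (STIP1, CHORDC1, AHSA1, ST13), 3 BAG genes (BAG1, BAG2, BAG3), 2 small heat shock proteins (HSPB1, HSPB8), the transcription factor gene HSF2 and the 8 subunits of the CCT chaperonin (TCP1, CCT2, CCT3, CCT4, CCT5, CCT6A, CCT7, CCT8). The other 4, HSPA9, HSPD1, HSPE1 and DNAJA3, encode mitochondrial chaperones, so the name cytosolic does not cover every gene.

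The study compared human HCT8 colorectal cancer cells, labelled wild type in genotype in all samples, after transfection with a GPT1 overexpression plasmid (3 samples) or with a control plasmid (3 samples). GPT1, gene symbol GPT, is the cytosolic alanine transaminase, which exchanges an amino group between alanine and glutamate. Cells of both groups grew in DMEM with fetal bovine serum, and mRNA libraries were sequenced in bulk. The labels do not say whether the transfection was transient or gave a selected line, nor when cells were harvested. They also do not say that the 3 samples of a group were separate cultures, so every p-value below reflects the spread between libraries alone, part or all of which may be technical. In bulk RNA, fewer cells that express a gene and less of its RNA per cell cannot be told apart.

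Chaperones bind unfolded stretches of other proteins and keep them from clumping. HSP70 proteins take hold of a client that an HSP40 (J-domain) protein delivers, hydrolyse ATP to clamp it, and let go when an HSP110 or BAG protein exchanges their nucleotide; HSP90, reached through the linker STIP1, finishes folding of kinases and receptors, and the barrel-shaped CCT complex folds actin and tubulin. In stress, heat shock factors bind heat shock elements near the start of many of these genes and raise them together, whereas HSPA8 and HSP90AB1 are known as the abundant forms of unstressed cells.

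The plasmid gene marked the groups as labelled. GPT had 105529, 96886 and 106063 counts in the GPT1 libraries, against 9, 14 and 3 counts in the control libraries, and the groups did not overlap (exact two-sided permutation test of CPM, p = 0.1, the smallest that 3 against 3 allows). Total counts were 30370654 to 31513656 in GPT1 libraries and 21255655 to 32487217 in control libraries. Control replicate 3 was the shallowest library. Its genes deviated from their mean over the libraries of both groups with GC content (Spearman -0.52 across 17436 genes). GPT1 replicate 1 deviated the opposite way (Spearman 0.47), and both values include the difference between the groups. Across the same genes the log2 fold change, always GPT1 over control here, correlated with transcript length at Spearman -0.33 and with GC content at 0.31, so each gene described below whose call changed with a correction for length and GC is named as such. Control replicate 3 and GPT1 replicate 1 were chosen for leaving out together from these GC trends alone. By counts over all genes control replicate 3 was also the farthest of its group (chi-square per degree of freedom 25.2 and 30.8 against the other controls), but in the GPT1 group it was replicate 2 (18.4 and 17.0, against 10.5 between replicates 1 and 3). Of 13 epithelial and intestinal markers 11 were tested and 10 were lower in GPT1 libraries (summed 571 to 642 CPM, against 924 to 1080 CPM in control libraries). EPCAM averaged 9.28 ± 0.437 CPM in GPT1 libraries and 24.9 ± 1.15 CPM in control libraries (SD, n = 3 each), and KRT20 and CDX1 were near 0 in both. Other genes of this list were well expressed. KRT8 averaged 352 ± 19.3 CPM in GPT1 and 529 ± 45.3 CPM in control libraries, and KRT18 171 ± 12.6 and 261 ± 25.8 CPM. CDX2, the 1 tested marker that did not pass, averaged 45.3 ± 3.56 CPM in GPT1 and 41.7 ± 4.47 CPM in control libraries (edgeR adjusted p = 0.448). Of 9 neural and kidney line markers 4 were lower in GPT1 libraries (361 to 374 CPM, against 579 to 677 CPM in control libraries). The neurofilament gene NEFM averaged 104 ± 3.33 CPM in GPT1 and 293 ± 41.7 CPM in control libraries (SD, n = 3 each). That NEFM level is not what the label of a colorectal line describes. TUBB3 of the same list averaged only 0.597 ± 0.0840 CPM in GPT1 and 0.753 ± 0.306 CPM in control libraries. The identity of the cells was not tested. Summed markers of the other cell types were low. Fibroblast genes reached 60.9 to 62.4 CPM in GPT1 libraries and 50.5 to 53.7 CPM in control libraries, leukocyte genes 1.37 to 1.70 CPM in GPT1 and 2.10 to 3.24 CPM in control libraries. Endothelial genes reached 0.386 to 0.951 CPM in GPT1 and 0.159 to 0.277 CPM in control libraries, and hepatocyte genes 0.837 to 1.18 CPM in GPT1 and 2.89 to 3.70 CPM in control libraries. The part of these shifts in the results was not tested.

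With GPT1 overexpression the constitutive HSP70 gene HSPA8, the inducible HSPA1B and the HSP40 genes DNAJA1, DNAJB1 and DNAJB2 rose by 1.33 to 1.72 times, HSPA2 rose 1.94-fold from a low level, and BAG1 and CCT3 rose by 1.38 and 1.23 times. HSPA4, HSPA4L and HSF2 fell. HSP90AA1 and HSP90AB1 did not pass the threshold, and neither did 7 of the 8 CCT genes. Tested with edgeR's quasi-likelihood test and Benjamini-Hochberg adjustment over 17638 genes (threshold 0.05), 8 of the 39 genes were higher (20.5%), 3 were lower (7.69%) and 28 did not pass. Among all tested genes 10.5% were higher and 14.6% lower, 25.1% in either direction, against 28.2% of the 39 in either direction. The median log2 fold change of the 39 was 0.16, and that of all tested genes was -0.02. The 3 GPT1 libraries all lay above the 3 control libraries in 22 of the 39 genes (56.4%) and all below them in 4 (10.3%), against 21.2% and 22.2% of all tested genes, and the groups overlapped in 13. Leaving out libraries moved these counts: 12 were higher and 3 lower without control replicate 3 and GPT1 replicate 1, and 5 were higher and 0 lower by edgeR without GPT1 replicate 1 alone or without GPT1 replicate 3 alone (4 and 3 lower at an unadjusted p under 0.05). Without GPT1 replicate 2 alone 11 were higher and 3 lower. Calls over all tested genes moved as well, from 4430 with every library to 3492 without control replicate 3 and GPT1 replicate 1. They were 1586 without GPT1 replicate 1, 1443 without GPT1 replicate 3 and 4597 without GPT1 replicate 2. With control replicate 3 and GPT1 replicate 1 both left out, HSPA1A, HSPE1, TCP1, CCT2, CCT4 and CCT6A passed as higher and HSPB1 as lower, and BAG1, CCT3 and HSPA4 no longer passed. For HSPA1A, TCP1, CCT2, CCT4 and CCT6A these were the highest control and the lowest GPT1 library, and for HSPB1 the reverse. Leaving them out widens the gap of those genes by itself, so these added calls are no separate support. In HSPE1 both libraries were the highest of their group. After the length and GC correction 18 of the 39 were higher and 5 lower, and over all tested genes 3504 were higher and 2612 lower, against 1858 higher and 2572 lower without it. HSPA1B, HSPA2, HSPA8, DNAJA1 and DNAJB1 passed in all 17 alternatives tried at this threshold and also at an adjusted p of 0.01.

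**Figure D1:**
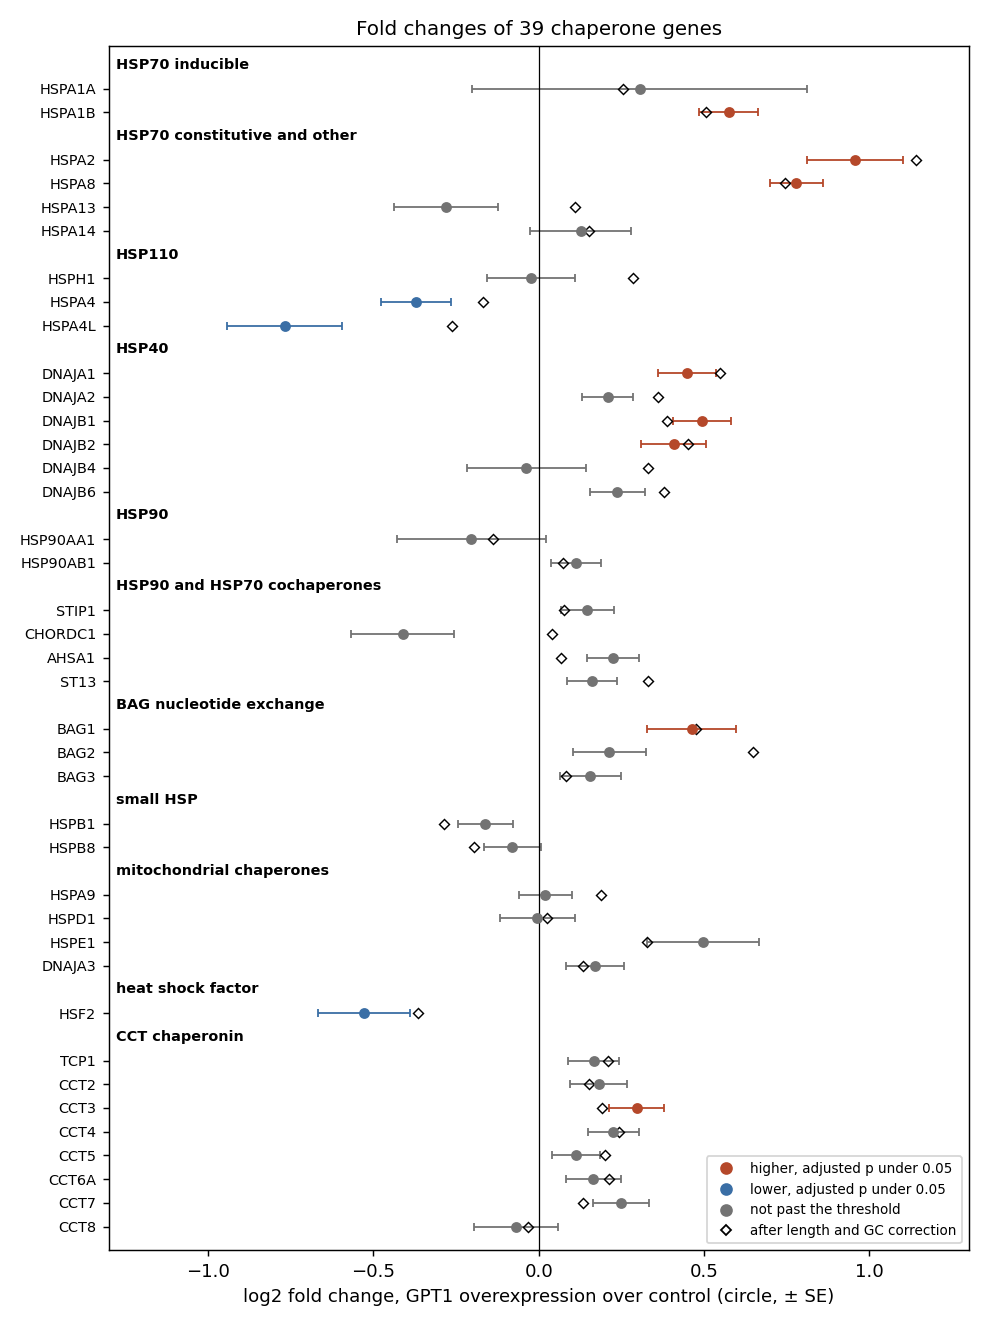
Log2 fold change of each of the 39 genes by role, GPT1 overexpression over control, as filled circles with their standard error (red for higher and blue for lower at an edgeR adjusted p under 0.05, grey otherwise), with open diamonds for the value after the length and GC correction. HSPA2 at 0.96 and HSPA8 at 0.78 sat farthest to the right and HSPA4L at -0.77 farthest to the left; 7 of 8 CCT circles lay right of 0.

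The 2 highest log2 fold changes among the 39 genes were those of HSP70 genes, HSPA2 and HSPA8. HSPA8 encodes the constitutive HSP70 (HSC70) that folds new proteins and strips clathrin coats, and it lies at chr11:123057489-123063230 on the minus strand (GENCODE 29 gene span, GRCh38). It had 1054, 1081 and 1096 CPM (reads scaled to a common library size) in GPT1 libraries, against 607, 606 and 670.3 CPM in control libraries. Every GPT1 library exceeded every control library, and the spread within each group was small beside the gap between them. The fold was 1.72 (log2 0.78 ± 0.08 (SE), edgeR adjusted p = 0.000187), and it was 0.75 on the log2 scale after the correction for length and GC.

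HSPA1A and HSPA1B, at chr6:31815464-31817946 and chr6:31827735-31830255 on the plus strand, encode nearly the same stress-inducible HSP70, and reads that both share can be counted for either or for neither. HSPA1B had 67.2, 63.2 and 63.6 CPM in GPT1 libraries and 41.4, 44.8 and 44.2 CPM in control libraries. Its groups did not overlap, and it rose 1.49-fold (log2 0.57 ± 0.09 (SE), edgeR adjusted p = 0.00212). HSPA1A was listed far lower, with 1.16, 3.67 and 3.86 CPM in GPT1 libraries and 2.93, 0.699 and 3.56 CPM in control libraries. Here 1 library of each group lay well below the others and the groups overlapped (log2 0.30 ± 0.51 (SE), edgeR adjusted p = 0.681), while with 2 against 2 libraries, without control replicate 3 and GPT1 replicate 1, HSPA1A passed at a log2 fold change of 1.04 (edgeR adjusted p = 0.0145). Those were its highest control and its lowest GPT1 library, so leaving them out raises the fold by itself. Without control replicate 2 the log2 fold change was -0.16 (edgeR adjusted p = 0.781). Summed over both genes, which removes the question of how shared reads were split between them but not that of reads counted for neither, the level was 68.4, 66.9 and 67.5 CPM in GPT1 libraries and 44.3, 45.5 and 47.8 CPM in control libraries. The ratio of these means was 1.47, and it stayed between 1.45 and 1.51 when any 1 library was left out.

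The upstream sequences of both HSP70 genes are shown because heat shock factor binds repeats of the 5-letter unit GAA plus 2 other bases, set head to head. Letters were searched as GAANNTTC and TTCNNGAA, each of which reads the same on both strands, in the 250 bases before each gene start in the RefSeq table (GRCh38.p14). Capitals mark each match, and overlapping matches make a run of 3 units. The 180 bases before the start of HSPA8 (chr11:123062137-123062316, minus strand) and of HSPA1B (chr6:31827558-31827737, plus strand) read:
HSPA8: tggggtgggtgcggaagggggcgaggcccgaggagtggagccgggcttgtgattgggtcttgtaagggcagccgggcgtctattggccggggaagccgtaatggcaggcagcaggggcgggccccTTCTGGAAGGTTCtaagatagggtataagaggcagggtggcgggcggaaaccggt
HSPA1B: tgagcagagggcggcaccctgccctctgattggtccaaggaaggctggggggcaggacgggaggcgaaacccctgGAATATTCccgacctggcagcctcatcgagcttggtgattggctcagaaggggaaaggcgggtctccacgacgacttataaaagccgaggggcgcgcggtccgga
HSPA8 holds a run of 3 units that begins 55 bases before its start, and a further run, 230 bases before it, lies outside the printed stretch. HSPA1B holds a single match of 2 units, 105 bases before its start.

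HSPA2, best known from the testis, was rare in both groups, with 5.67, 5.02 and 5.95 CPM in GPT1 libraries and 2.75, 2.95 and 2.87 CPM in control libraries. It rose 1.94-fold (log2 0.96 ± 0.15 (SE), edgeR adjusted p = 0.00200) without overlap. HSPA13, an HSP70 relative attached to microsomes, and HSPA14, which works at the ribosome, did not pass the test. HSPA13 averaged 128 ± 18.0 CPM in GPT1 libraries and 155 ± 38.0 CPM in control libraries, and HSPA14 averaged 15.2 ± 2.55 CPM in GPT1 and 14.0 ± 1.84 CPM in control libraries (SD, n = 3 each; edgeR adjusted p = 0.207 and 0.559). HSPA13 lost its sign with the correction for length and GC (log2 -0.28 before it and 0.11 after it), and HSPA14 overlaps MSANTD7 on the same strand, so its reads are not certain.

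Of 6 HSP40 genes 3 rose (50.0%, against 10.5% of all tested genes) and 3 did not pass. In 5 of the 6 every GPT1 library lay above every control library (83.3%, against 21.2% of all tested genes). DNAJA1, which delivers clients to HSPA8 and carries a farnesyl group, had 235, 248 and 249 CPM in GPT1 libraries and 165, 173 and 198 CPM in control libraries. It rose 1.36-fold (log2 0.45 ± 0.09 (SE), edgeR adjusted p = 0.00692). DNAJB1, the inducible HSP40 that works with HSPA1 proteins, had 140.5, 125 and 135 CPM in GPT1 libraries and 98.0, 98.7 and 88.0 CPM in control libraries. Both genes were higher in every GPT1 library than in any control library, and DNAJB1 rose 1.41-fold (log2 0.49 ± 0.09 (SE), edgeR adjusted p = 0.00423). DNAJB1 overlaps TECR on the other strand, which had 2858 to 3518 counts in GPT1 libraries and 1879 to 3631 counts in control libraries. DNAJB1 itself had 3822 to 4364 counts in GPT1 libraries and 1902 to 3205 counts in control libraries. As the strand setting of the counting is unknown, a share of the reads of DNAJB1 may belong to TECR. The start of DNAJB1 with matches, 1 of its 3 annotated starts, is preceded by these 180 bases (chr19:14518398-14518577, minus strand), with single matches 77 and 47 bases before the start:
DNAJB1: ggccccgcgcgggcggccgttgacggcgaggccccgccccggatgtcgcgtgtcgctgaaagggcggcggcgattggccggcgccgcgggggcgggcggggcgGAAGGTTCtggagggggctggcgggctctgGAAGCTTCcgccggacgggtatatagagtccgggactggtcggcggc

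DNAJB2, which sends clients to the proteasome and is known from neurons, had 63.1, 57.3 and 61.1 CPM in GPT1 libraries and 48.7, 46.8 and 41.2 CPM in control libraries. Again no value overlapped, and the fold was 1.33 (log2 0.41 ± 0.10 (SE), edgeR adjusted p = 0.0158). This call was lost without GPT1 replicate 1 (edgeR adjusted p = 0.0714) and without GPT1 replicate 3 (0.0741). DNAJA2, a further partner of HSPA8, averaged 121 ± 1.99 CPM in GPT1 libraries and 105 ± 3.20 CPM in control libraries, and DNAJB6, which holds back polyglutamine aggregates, averaged 149 ± 4.25 CPM in GPT1 and 127 ± 9.32 CPM in control libraries (SD, n = 3 each). Their groups did not overlap, but both missed the threshold (edgeR adjusted p = 0.0685 and 0.0581). DNAJB4 averaged 12.1 ± 1.81 CPM in GPT1 libraries and 12.5 ± 3.0 CPM in control libraries with overlap (SD, n = 3 each; edgeR adjusted p = 0.896). Once length and GC were corrected, all 6 HSP40 genes passed as higher, against 3504 of 17638 tested genes. Their median log2 fold change was then 0.38, against 0.32 without the correction, with DNAJB4 at 0.33.

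**Figure D2:**
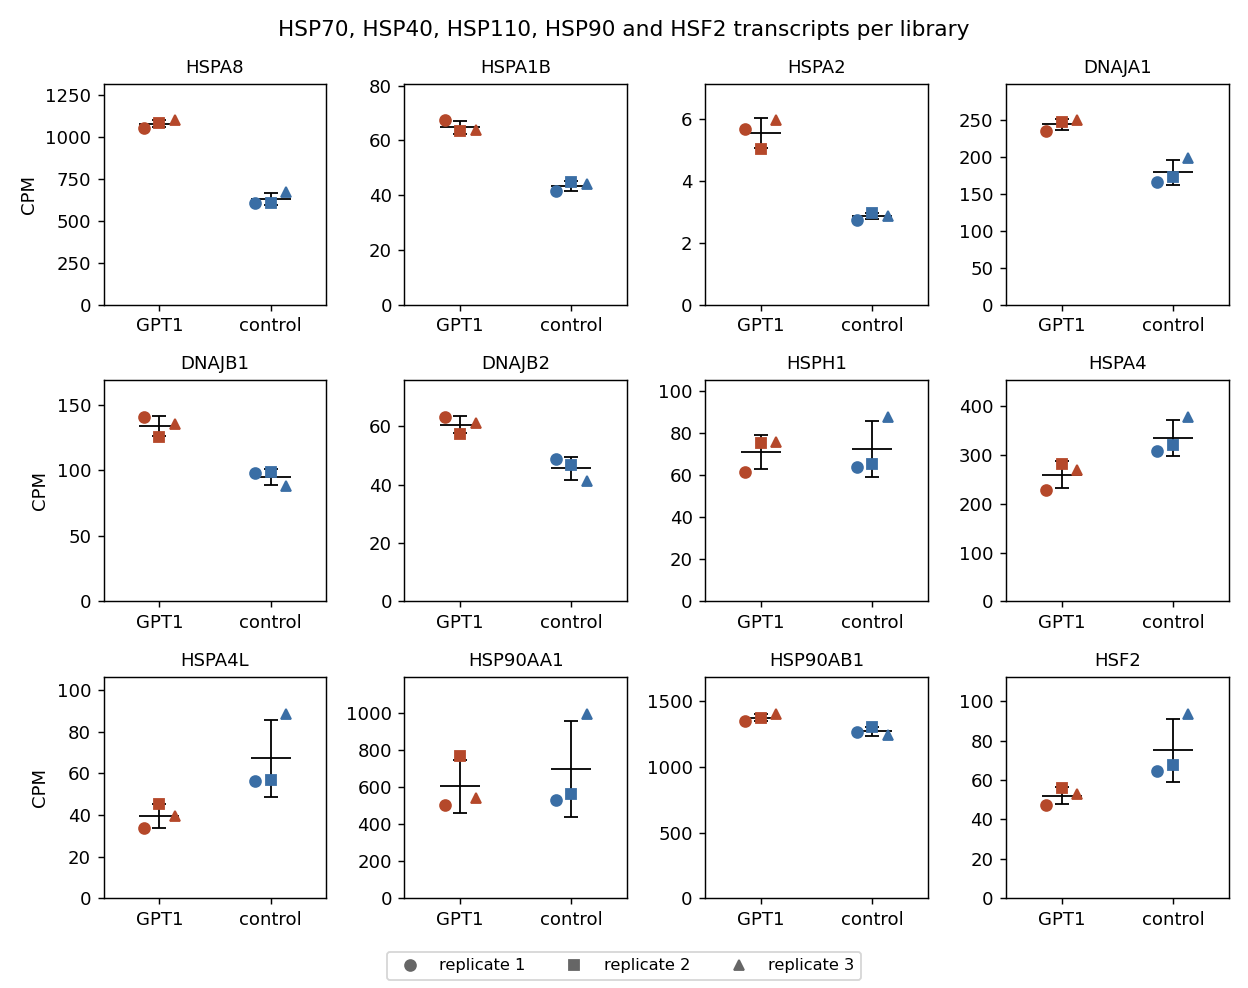
CPM of 12 genes in each library, GPT1 overexpression left and control right, with 1 marker shape per replicate number, a bar for the mean and whiskers for the SD (n = 3 each); each vertical axis starts at 0. HSPA8, HSPA1B, HSPA2, DNAJA1, DNAJB1 and DNAJB2 show 3 GPT1 points above 3 control points, while HSP90AA1, at 502, 769 and 542 CPM in GPT1 libraries and 529.9, 565 and 996 CPM in control libraries, shows 1 high point in each group.

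The products of the HSP110 genes exchange the nucleotide of HSP70 and help it to dissolve aggregates. Of these 3 genes 2 fell (66.7%, against 14.6% of all tested genes), and HSPH1 did not pass. HSPA4 (chr5:133051962-133106449, plus strand) had 228, 280.3 and 268 CPM in GPT1 libraries and 308, 319 and 376 CPM in control libraries. Its groups did not overlap, and it fell to 0.773 times the control level (log2 -0.37 ± 0.10 (SE), edgeR adjusted p = 0.0273). HSPA4L (chr4:127781821-127840733, plus strand) had 33.8, 45.1 and 39.5 CPM in GPT1 libraries and 56.5, 56.9 and 88.7 CPM in control libraries. Control replicate 3 was the high one, and every GPT1 library lay below every control library (log2 -0.77 ± 0.17 (SE), edgeR adjusted p = 0.0128). Both calls were lost without GPT1 replicate 1 (edgeR adjusted p = 0.118 for HSPA4 and 0.0557 for HSPA4L) and without GPT1 replicate 3 (0.0800 and 0.0512). HSPA4L moved to -0.51 without control replicate 3, and HSPA4, at -0.19, did not pass without control replicate 3 and GPT1 replicate 1 (edgeR adjusted p = 0.0976). HSPA4L has long transcripts of low GC content (38.1%), and the correction for length and GC brought its log2 fold change to -0.26 and that of HSPA4 to -0.17, both still past the threshold (edgeR adjusted p = 0.0125 and 0.0468).

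HSPH1, the heat-inducible HSP110, had 61.7, 75.4 and 75.8 CPM in GPT1 libraries and 64.0, 65.1 and 87.5 CPM in control libraries. The groups overlapped (log2 -0.02 ± 0.13 (SE), edgeR adjusted p = 0.916). Its sign depended on the setting: it was 0.29 and past the threshold after the length and GC correction (edgeR adjusted p = 0.00769), 0.016 with upper-quartile factors and 0.15 without control replicate 3, where it did not pass in either.

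The HSP90 genes were high in both groups and neither passed. HSP90AB1, the constitutive form, had 1351, 1371 and 1405 CPM in GPT1 libraries and 1269, 1306 and 1240.1 CPM in control libraries. Its groups did not overlap, but the gap was small (log2 0.11 ± 0.08 (SE), edgeR adjusted p = 0.286). HSP90AA1, the inducible form, had 502, 769 and 542 CPM in GPT1 libraries and 529.9, 565 and 996 CPM in control libraries. Control replicate 3 and GPT1 replicate 2 stood high and the groups overlapped (log2 -0.20 ± 0.23 (SE), edgeR adjusted p = 0.523). The direction turned without control replicate 3, to a log2 fold change of 0.16 that did not pass. A share of reads at HSP90AA1 may belong to WDR20 on the other strand, since the strand setting of the counting is unknown. Upstream sequence is shown for HSP90AA1 (chr14:102087045-102087224, minus strand) and HSP90AB1 (chr6:44247763-44247942, plus strand), because each has an annotated start preceded by runs of 3 units and neither gene passed the test. The table lists 2 starts for HSP90AA1 and 3 for HSP90AB1, and the others hold no match. In HSP90AA1 the run begins 88 bases and a further match 68 bases before the start, and in HSP90AB1 runs begin 165 and 112 bases before it:
HSP90AA1: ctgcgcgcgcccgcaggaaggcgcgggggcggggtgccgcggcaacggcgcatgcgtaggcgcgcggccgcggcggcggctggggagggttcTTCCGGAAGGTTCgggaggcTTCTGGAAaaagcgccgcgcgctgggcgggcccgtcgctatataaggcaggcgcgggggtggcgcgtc
HSP90AB1: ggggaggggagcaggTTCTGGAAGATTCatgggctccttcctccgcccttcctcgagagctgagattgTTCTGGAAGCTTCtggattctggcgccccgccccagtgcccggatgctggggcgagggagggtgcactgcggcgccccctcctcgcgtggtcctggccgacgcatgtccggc

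None of the 4 cochaperones passed before the correction for length and GC. STIP1, which links HSP70 to HSP90, averaged 505 ± 11.4 CPM in GPT1 libraries and 456 ± 29.1 CPM in control libraries, AHSA1, which speeds up the ATPase of HSP90, averaged 249 ± 12.8 CPM in GPT1 and 213 ± 8.96 CPM in control libraries, and ST13, which steadies HSP70 on its client, averaged 402 ± 19.7 CPM in GPT1 and 359.9 ± 11.6 CPM in control libraries (SD, n = 3 each). All 3 had GPT1 libraries above control libraries without overlap (edgeR adjusted p = 0.187, 0.0575 and 0.142). AHSA1 overlaps VIPAS39 on the other strand (1222 to 1237 counts in GPT1 libraries and 863 to 1514 counts in control libraries), so its level is not certain. After the correction for length and GC ST13 passed as higher (log2 0.33, edgeR adjusted p = 0.00172), and AHSA1, at 0.07, did not pass. CHORDC1, a heat-inducible HSP90 partner, averaged 46.7 ± 5.73 CPM in GPT1 libraries and 62.2 ± 14.9 CPM in control libraries (SD, n = 3 each). Its groups did not overlap either, in the lower direction (log2 -0.41 ± 0.16 (SE), edgeR adjusted p = 0.0742), and its log2 fold change was 0.04 after the correction for length and GC. Its 180 bases before the start (chr11:90223050-90223229, minus strand) held the longest row of heat shock units among the promoters printed here:
CHORDC1: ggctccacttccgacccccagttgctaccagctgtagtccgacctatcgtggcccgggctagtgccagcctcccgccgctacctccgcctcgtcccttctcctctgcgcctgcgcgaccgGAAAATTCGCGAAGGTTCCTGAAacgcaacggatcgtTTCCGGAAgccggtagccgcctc

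BAG proteins release the client from HSP70. BAG1, which also binds the proteasome, had 49.1, 40.4 and 42.7 CPM in GPT1 libraries and 31.6, 37.4 and 26.7 CPM in control libraries. The groups did not overlap (fold 1.38, log2 0.46 ± 0.13 (SE), edgeR adjusted p = 0.0301), but the call was lost without control replicate 1 (edgeR adjusted p = 0.0777), without GPT1 replicate 1 (0.125) or without GPT1 replicate 3 (0.0861). BAG2 averaged 25.4 ± 0.466 CPM in GPT1 libraries and 21.9 ± 2.01 CPM in control libraries, and the stress-inducible BAG3, which steers clients to autophagy, averaged 57.3 ± 0.810 CPM in GPT1 and 51.4 ± 3.80 CPM in control libraries (SD, n = 3 each). Neither passed (edgeR adjusted p = 0.176 and 0.231), although BAG2 did after the correction (log2 0.65, edgeR adjusted p = 0.00140). BAG2 overlaps RAB23 on the other strand (458 to 570 counts in GPT1 libraries and 567 to 772 counts in control libraries), so its level is not certain.

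The small heat shock proteins, which hold unfolded proteins without ATP, had log2 fold changes below 0 and did not pass. HSPB1 (HSP27) averaged 146 ± 10.6 CPM in GPT1 libraries and 163 ± 6.95 CPM in control libraries, and HSPB8, the partner of BAG3, averaged 97.8 ± 6.57 CPM in GPT1 and 103 ± 4.46 CPM in control libraries (SD, n = 3 each; edgeR adjusted p = 0.174 and 0.514). Both are rich in GC and both were lower past the threshold after the correction (log2 -0.29 and -0.20, edgeR adjusted p = 0.00392 and 0.0434).

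HSF2, a heat shock factor that pairs with HSF1, was the only transcription factor gene among the 39 (chr6:122399546-122433119, plus strand). It had 47.4, 56.0 and 52.8 CPM in GPT1 libraries and 64.5, 67.4 and 93.7 CPM in control libraries. Control replicate 3 was the high one, and the groups did not overlap. HSF2 fell to 0.693 times the control level (log2 -0.53 ± 0.14 (SE), edgeR adjusted p = 0.0218), to -0.33 without control replicate 3, and the call was lost without GPT1 replicate 1 (edgeR adjusted p = 0.0898) or without GPT1 replicate 3 (0.0744). After the correction its log2 fold change was -0.36 (edgeR adjusted p = 0.00282). HSF1, the main heat shock factor, averaged 158 ± 13.5 CPM in GPT1 libraries and 142 ± 15.2 CPM in control libraries (SD, n = 3 each) and did not pass (edgeR adjusted p = 0.293).

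None of the 4 mitochondrial chaperone genes passed. HSPA9 (mortalin, the HSP70 of the matrix) averaged 776 ± 51.6 CPM in GPT1 libraries and 765 ± 12.2 CPM in control libraries, and HSPD1 (HSP60) averaged 563 ± 60.3 CPM in GPT1 and 565 ± 79.7 CPM in control libraries (SD, n = 3 each; edgeR adjusted p = 0.875 and 0.980). DNAJA3, the J-domain partner of HSPA9, averaged 239.9 ± 8.44 CPM in GPT1 libraries and 213 ± 20.9 CPM in control libraries (edgeR adjusted p = 0.177). HSPE1 (HSP10), the lid of HSPD1, averaged 9.91 ± 1.91 CPM in GPT1 libraries and 7.06 ± 0.988 CPM in control libraries and lay close to the threshold (log2 0.50 ± 0.17 (SE), edgeR adjusted p = 0.0519). Its level is uncertain, because it overlaps a readthrough gene, HSPE1-MOB4, listed at 0 in all 6 libraries, and HSPD1 on the other strand.

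The CCT chaperonin is a double ring in which each of 8 subunits occupies a fixed place. CCT3 rose, the other 7 did not pass, and 7 of 8 log2 fold changes were above 0 (median 0.17, against -0.02 over all tested genes). In 6 of 8 subunits every GPT1 library exceeded every control library (75.0%, against 21.2% of all tested genes), and 1 of 8 rose (12.5%, against 10.5%). CCT3 had 1136, 1061 and 1162 CPM in GPT1 libraries and 911, 971 and 854 CPM in control libraries (fold 1.23, log2 0.30 ± 0.08 (SE), edgeR adjusted p = 0.0274). CCT7 had 1017, 932 and 1011 CPM in GPT1 libraries and 832, 889 and 769 CPM in control libraries (edgeR adjusted p = 0.0526). CCT4 had 569, 607 and 594 CPM in GPT1 libraries and 480.2, 505 and 529 CPM in control libraries (edgeR adjusted p = 0.0539). These were the 3 subunits with the most reads, with no overlap between groups in any of them, and CCT7 and CCT4 fell just short of the threshold. The call of CCT3 was lost with a replicate block (edgeR adjusted p = 0.0837), and when control replicate 1 (0.0814), GPT1 replicate 1 (0.0997) or GPT1 replicate 3 (0.121) was left out, and without both control replicate 3 and GPT1 replicate 1 (0.0597).

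The other 5 subunits had fewer reads. TCP1 had 306, 331 and 334 CPM in GPT1 libraries and 289, 276 and 300.2 CPM in control libraries. CCT2 had 306, 339.6 and 325 CPM in GPT1 libraries and 258, 299 and 299 CPM in control libraries. CCT5 had 409, 414 and 433 CPM in GPT1 libraries and 379, 389.7 and 393 CPM in control libraries. In these 3 subunits the groups did not overlap, and the test was not passed (edgeR adjusted p = 0.134, 0.143 and 0.272). TCP1 overlaps ACAT2 on the other strand (1606 to 1657 counts in GPT1 libraries and 731 to 1403 counts in control libraries). TCP1 itself had 9517 to 10219 counts in GPT1 libraries and 6491 to 9457 counts in control libraries, a share of which may belong to ACAT2. CCT6A had 323, 341 and 334 CPM in GPT1 libraries and 276, 289.7 and 324 CPM in control libraries. CCT8 had 211, 256 and 231 CPM in GPT1 libraries and 206, 230.1 and 296 CPM in control libraries. Control replicate 3 was the high control in both, and the groups overlapped (edgeR adjusted p = 0.163 and 0.717). CCT8 was the only subunit with a fold change below 0 (log2 -0.07 ± 0.13 (SE)), and it turned to 0.11 without control replicate 3. After the correction for length and GC 5 of 8 subunits (TCP1, CCT3, CCT4, CCT5 and CCT6A) passed as higher, against 3504 of 17638 tested genes. The median of the 8 was then 0.20, against 0.03 over all tested genes. CCT3 was then at 0.19 and still past the threshold (edgeR adjusted p = 0.0239).

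**Figure D3:**
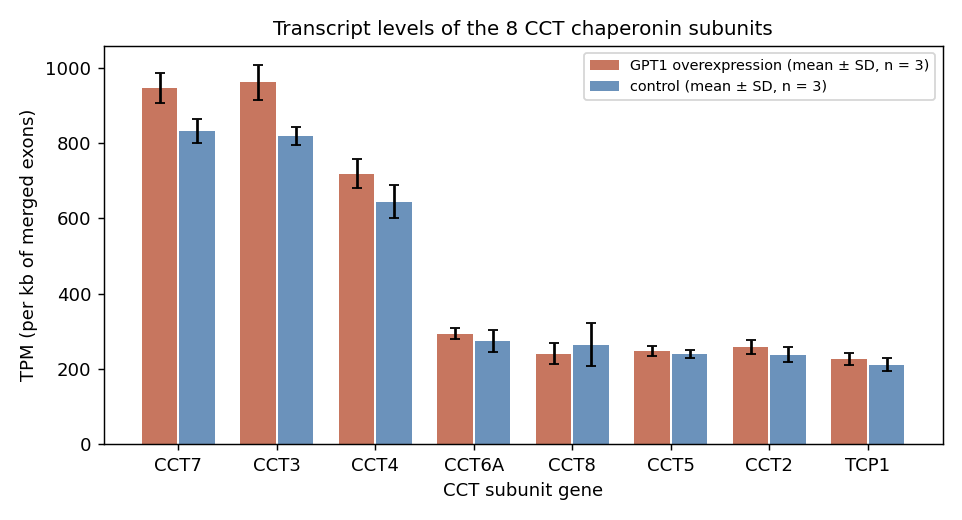
Levels of the 8 CCT subunit genes in TPM, with bars for the mean and whiskers for the SD (n = 3 each), GPT1 overexpression left of control in each pair. CCT7, CCT3 and CCT4 stood highest in both groups, and the highest subunit was 4.25 ± 0.310 times the lowest in GPT1 libraries and 3.96 ± 0.449 times in control libraries.

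Levels were set against each other per kilobase of merged exon, as TPM (transcript levels scaled to a common sum). Merged exons span 4849 bases in HSPA8, whose longest transcript has 2463, but in HSPA1B both are 2521 bases. Ranks and ratios between genes, here and below, therefore depend on this choice of length, which is the same in every library. HSP90AB1 was the most abundant of the 39 at 1593 ± 66.6 TPM in GPT1 libraries and 1540.1 ± 22.8 TPM in control libraries, followed in control libraries by CCT7 (948 ± 39.8 TPM in GPT1 and 833 ± 32.0 TPM in control libraries) and CCT3 (961 ± 46.7 TPM in GPT1 and 819 ± 24.2 TPM in control libraries; SD, n = 3 each). HSPA8 reached 767 ± 33.4 TPM in GPT1 libraries and 468 ± 42.0 TPM in control libraries, where it did not differ beyond the spread from HSPD1 (482 ± 81.5 TPM) and HSP90AA1 (482 ± 193 TPM). HSPA1B was at 88.5 ± 0.892 TPM in GPT1 libraries and 62.2 ± 2.66 TPM in control libraries, and HSPA2 at 3.31 ± 0.288 TPM in GPT1 and 1.79 ± 0.0537 TPM in control libraries was the least abundant in control libraries.

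The groups of genes named for comparison gave these summed levels. The inducible HSP70 pair came to 92.5 ± 1.44 TPM in GPT1 libraries and 65.8 ± 4.25 TPM in control libraries, a ratio of 1.41. The 6 HSP40 genes came to 597 ± 21.5 TPM in GPT1 libraries and 475 ± 28.7 TPM in control libraries, a ratio of 1.26. The 8 CCT genes came to 3895 ± 148 TPM in GPT1 libraries and 3525 ± 113 TPM in control libraries, a ratio of 1.11. In these 3 groups every GPT1 library lay above every control library. The HSP90 pair came to 1991 ± 140 TPM in GPT1 libraries and 2023 ± 201 TPM in control libraries, a ratio of 0.984 that lay between 0.952 and 1.04 with any 1 library left out. The HSP110 genes came to 214 ± 28.0 TPM in GPT1 and 287 ± 45.0 TPM in control libraries (SD, n = 3 each), a ratio of 0.747. Every GPT1 library lay below every control library in the HSP110 sum. Over all 39 genes the sum was 10216 ± 459 TPM in GPT1 libraries and 9572 ± 588 TPM in control libraries, and the groups overlapped.

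Ratios between families were taken within each library. HSPA8 stood at 0.396, 0.368 and 0.393 of the TPM of both HSP90 genes in GPT1 libraries, against 0.238, 0.229 and 0.228 in control libraries. The HSP40 sum stood at 0.695 ± 0.00531 of the TPM of HSPA8 and the inducible HSP70 pair in GPT1 libraries, against 0.892 ± 0.0250 in control libraries. HSP70 was thus higher beside both families in every GPT1 library. For the HSP110 sum the same ratio was 0.249 ± 0.0240 in GPT1 libraries and 0.536 ± 0.0387 in control libraries. HSPA8 was 8.28 ± 0.237 times the inducible pair in GPT1 libraries and 7.11 ± 0.183 times in control libraries (SD, n = 3 each). No ratio of these 4 overlapped between the groups. HSP90AB1 over HSP90AA1 did overlap, at 4.74, 3.14 and 4.56 in GPT1 libraries and 4.22, 4.07 and 2.19 in control libraries.

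Replicates of a group also differed in a way that ran through many of the 39. Control replicate 3 was the highest control in 23 genes, whose median GC content was 43.1%, and the lowest control in 12, whose median was 52.5%. In 14 genes both control replicate 3 and GPT1 replicate 2 were the highest of their group (median GC 42.8%). Over the 39 genes the log2 fold change correlated with GC content at Spearman 0.46 and with transcript length at -0.22 (n = 39 genes that share the same 6 libraries), and its length correlation was 0.18 after the correction. The part of GC content in single genes was not tested beyond the corrected values given above.

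**Figure D4:**
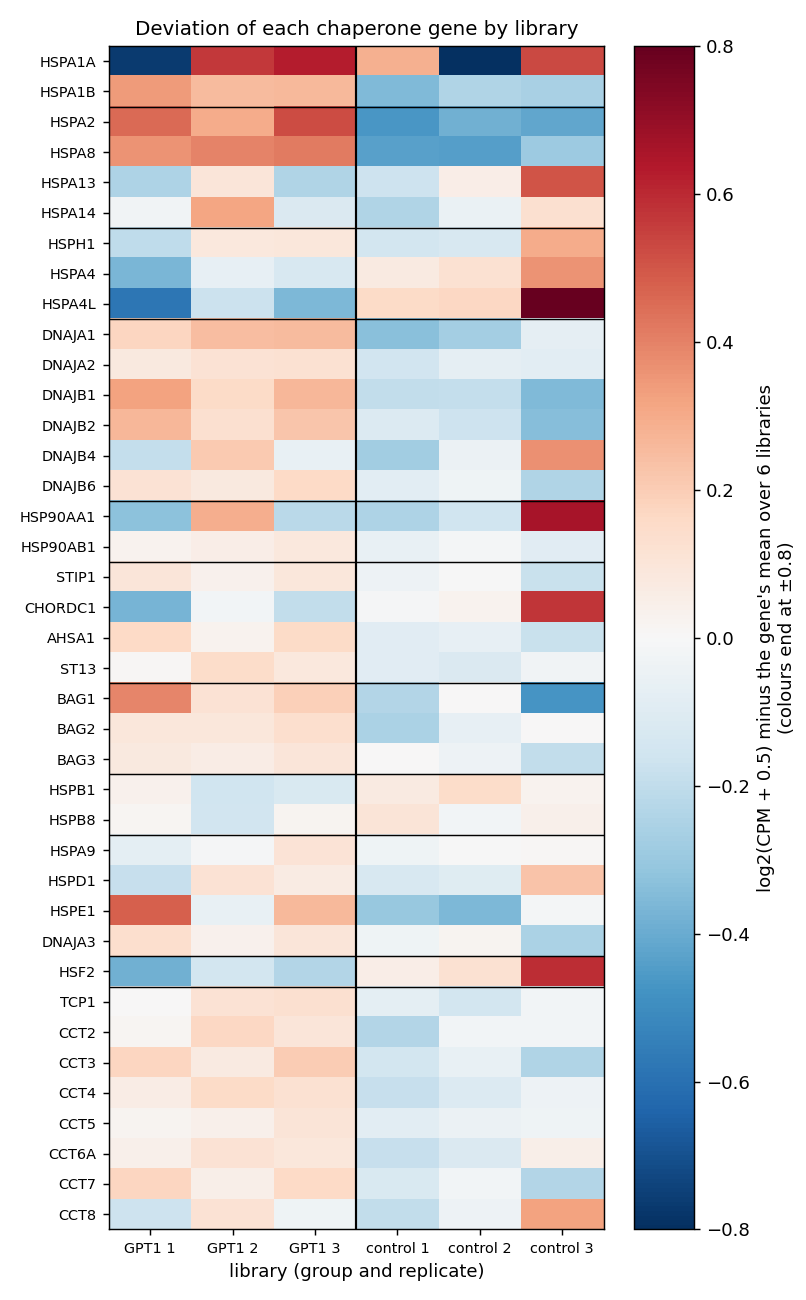
Deviation of log2(CPM + 0.5) from each gene's own mean over 6 libraries, with GPT1 overexpression libraries in the left 3 columns, control libraries in the right 3, and lines between the role groups. HSPA8, HSPA1B, HSPA2 and DNAJA1 are red in all 3 left columns and blue in all 3 right columns, whereas HSPA4L, HSP90AA1, CHORDC1 and HSF2 are deepest red in control replicate 3.

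The RefSeq table held a window for 36 of the 39 genes, 50 windows in all, and none for HSPA14, ST13 and CCT6A. A match of 2 units lay within 250 bases before the start in 17 of these 50 windows, each of a different gene, against 11.6% of the 35116 windows of all genes. A run of 3 units lay in 6 of the 50 windows, against 0.441% of all windows, and those genes were CHORDC1, DNAJB6, HSP90AA1, HSP90AB1, HSPA8 and HSPD1. Of the 17 genes with a match 4 were higher and 1 lower with GPT1 overexpression, with a median log2 fold change of 0.17. Of the 19 genes with a window and no match 4 were higher and 2 lower, with a median of 0.17. Among all tested genes 10.5% were higher and 14.6% lower. Only exact matches within 250 bases before a listed start were counted, so the genes without a match are not known to lack heat shock elements. Among the 6 genes with a run HSPA8 was the 1 that rose, and their median was 0.05.

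Other genes of the same pathways were read from 4 lists. Of 33 other cytosolic chaperone and heat shock factor genes 5 rose and 5 fell (15.2% each), against 10.5% higher and 14.6% lower among all tested genes. HSPA6, a strictly stress-induced HSP70, had 39, 40 and 47 counts in GPT1 libraries, against 6, 4 and 12 counts in control libraries. It stayed rare in both groups and rose 5.14-fold (log2 2.36 ± 0.42 (SE), edgeR adjusted p = 0.00458), and its reads may be shared with the other HSP70 copies. UNC45A, a myosin and HSP90 partner, rose (log2 0.40 ± 0.10 (SE)), as did HSPBP1, which exchanges the nucleotide of HSP70 (log2 0.42 ± 0.11 (SE)), while the lens heat shock factor HSF4 fell (log2 -0.69 ± 0.17 (SE); edgeR adjusted p = 0.0195, 0.0208 and 0.0167). The median of the 33 was 0.06. With the correction 9 were higher and 5 lower, against 3504 and 2612 of the 17638 tested genes.

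Of 12 prefoldin and CCT cofactor genes (prefoldin hands new chains to CCT) PDRG1 and UXT rose and URI1 fell (log2 0.45 ± 0.13, 0.46 ± 0.14 and -0.31 ± 0.10 (SE), edgeR adjusted p = 0.0271, 0.0369 and 0.0411), while PFDN5 lay at 0.50 ± 0.17 (SE) and did not pass. Of these 12 genes 16.7% were higher and 8.33% lower, 25.0% in either direction, against 25.1% of all tested genes. After the correction for length and GC neither UXT (log2 0.28, edgeR adjusted p = 0.0503) nor URI1 (-0.15, 0.0711) passed, and URI1 also lost its call with a replicate block. Among 13 actins and tubulins, the main clients of CCT, 5 rose (38.5%) and 1 fell (7.69%), against 10.5% and 14.6% of all tested genes. After the correction 4 were higher and 3 lower, against 3504 and 2612 of the 17638 tested genes. Their median log2 fold change was then 0.06, against 0.17 without it. ACTB averaged 1321 ± 64.9 CPM in GPT1 libraries and 1038 ± 107 CPM in control libraries, and ACTG1 averaged 2220.1 ± 135 CPM in GPT1 and 1760.2 ± 93.4 CPM in control libraries (SD, n = 3 each; edgeR adjusted p = 0.0233 and 0.0202). TUBA1C rose and TUBA4A fell (log2 0.36 ± 0.08 and -0.57 ± 0.13 (SE), edgeR adjusted p = 0.0122 and 0.0140). Of 11 mitochondrial partners and proteases HTRA2, a protease of the intermembrane space, rose (log2 0.45 ± 0.09 (SE), edgeR adjusted p = 0.00642). It was the 1 call among the 11 (9.09%, against 25.1% of all tested genes). GRPEL1, AFG3L2 and YME1L1 did not pass (log2 0.23 ± 0.09, 0.19 ± 0.08 and -0.21 ± 0.10 (SE)). After the correction 5 of the 11 were higher and 1 lower, again against 3504 and 2612 of all tested genes. GRPEL1 (log2 0.22, edgeR adjusted p = 0.0260) and AFG3L2 (0.33, 0.0166) were among the higher. Except for HSPA6 and HTRA2, which passed in every alternative at the threshold of 0.05, the calls of this paragraph and the one before were each lost when 1 or more single libraries were left out.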

How the data were processed

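Per the labels' protocols, total RNA was taken up in Trizol and made into mRNA libraries with Illumina protocols. The authors deposited whole-number read counts for each gene and sample. Per the submitters' processing notes, reads were aligned with HISAT2 2.0 to GRCh38. The counting tool, annotation release and strandedness were not given in the sources used here. Symbols were matched for 60652 of 60664 identifiers; coordinates, lengths and GC contents are those of GENCODE 29.

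Counts were analysed with edgeR 4.0.16 (R 4.3.3; filterByExpr, TMM, quasi-likelihood test, two-sided, Benjamini-Hochberg over 17638 genes, threshold 0.05). CPM use TMM-scaled library sizes, and TPM use merged exon lengths. The common biological coefficient of variation was 0.119. Replicate pairs differed far beyond sampling noise (chi-square per degree of freedom 9.98 to 30.8), so that 6 libraries were counted. This value does not show whether the 3 libraries of a group came from separate cultures. The code was tested on simulated data. Alternatives were other scalings and filters, DESeq2 1.42.0, limma 3.58.1 (voom), a replicate block, a length and GC offset per library (mgcv 1.9.3), an adjusted p of 0.01, each library left out, and, added after seeing the data, 2 against 2 libraries. Every value was given for the chaperone genes of a list drawn up by role and for each member past the threshold, and from each pathway list for up to 4 genes with the smallest adjusted p. HSF1, EPCAM, KRT8, KRT18, CDX2, NEFM and TUBB3 were named after their values were seen. The members, lists and named genes were chosen with earlier results of these data known.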

Additional observations from a re-analysis of the deposited data

How the results depend on the processing

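Against 8 chaperone genes higher and 3 lower, upper-quartile factors gave 14 higher, the length and GC correction 18 higher and 5 lower, no filter on low counts 5 lower, and an adjusted p of 0.01 gave 5 higher and 0 lower with edgeR (2 lower with DESeq2, 0 with limma voom; 1172 genes in all, against 4430). Over all genes tested in each setting, 4529 changed with upper-quartile factors, 6116 with the length and GC correction and 5394 with no filter. With 1 library left out, 5 to 11 chaperone genes were higher, 0 to 4 were lower, and 1443 to 4907 genes changed in all. The cause was not tested. With a replicate block 8 were higher, 3 lower and 3886 genes changed. Libraries of the same number did not deviate together (correlations 0.14, -0.28 and -0.08). No pairing by number showed, but deviations from a mean of so few libraries cannot exclude that such libraries were handled together.

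Among the 39 members and the 16 pathway genes named by rule, log2 fold changes that turned were those of HSPH1 (0.016 with upper-quartile factors, 0.29 with the length and GC correction, 0.23 with 2 against 2 libraries, -0.10 to 0.15 with 1 library left out), DNAJB4 (0.0016, 0.33, 0.25 and -0.17 to 0.17 under the same settings), HSP90AA1 (0.26 with 2 against 2 libraries, -0.40 to 0.16 with 1 left out), CCT8 (0.16, -0.17 to 0.11), HSPA1A (-0.16 to 0.69) and HSPA9 (-0.033 to 0.063). With the length and GC correction HSPA13 (0.11), CHORDC1 (0.040) and YME1L1 (0.018) turned too. HSPD1, at -0.0048, was 0.0072 with RLE factors, 0.034 with upper-quartile factors, 0.00020 with at least 1 CPM in 3 libraries, 0.0064 with DESeq2, 0.0032 with limma voom, 0.025 with the length and GC correction, 0.20 with 2 against 2 libraries and -0.061 to 0.13 with 1 left out. Of the recomputed fold changes of these 55 genes, 838 kept direction and side of the threshold, 55 moved past it, 69 fell short of it and 28 turned. With 3 libraries a group the calls of genes near the threshold, such as CCT4, CCT7 and HSPE1, were not settled.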
